A study of Mus musculus with 9 samples.

Results

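The guanylate-binding proteins (Gbp) were examined as the 10 genes Gbp2 to Gbp11 of the mouse, chosen by name from the 54532 genes counted in 9 heart libraries. All 10 were found in the table. The family was singled out because Gbp10 had one of the larger falls in these data, so every comparison with sham hearts is given for the members as a description without a p-value, and so is the GXNI comparison for Gbp10 itself. Guanylate-binding proteins are large GTPases of the dynamin superfamily that are induced in many cell types by interferons, above all by interferon gamma. They assemble on the membranes of intracellular microbes and of the vacuoles that hold them, and help to release microbial products to the inflammasomes. In tissue without infection their transcripts serve as a readout of interferon signalling.

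Hearts came from wild-type (WT) male C57BL/6J mice of 8 to 10 weeks, with 3 mice in each of 3 groups. Sham mice had the chest opened and the suture passed under the left anterior descending artery without being tied. Per the study's methods every group, sham included, received a tail-vein injection of drug or saline. MIRI (myocardial ischemia-reperfusion injury) mice had the artery tied for 30 min followed by 24 h of reperfusion and received saline, and GXNI mice had the same injury and received Guanxinning injection, a clinically used Chinese herbal injection, at 9 mL/kg through the tail vein within 10 min of ischemia. MIRI and GXNI hearts together are called I/R below. No transgene, Cre or deletion was used in any group.

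The total count was 17119454 to 22811295 per library, at which 3 counts correspond to 0.132 to 0.175 CPM (counts scaled to the total of the library, here with TMM factors over the 9 libraries). The labels name cardiomyocytes as the cell type, but markers of the other cells of the heart were present too. The summed level of 7 cardiomyocyte markers was 21835 to 37602 CPM, and 8 endothelial markers reached 836 to 1351 CPM and 9 macrophage markers 303 to 627 CPM. Over 15226 genes, the libraries labelled MIRI 1 and MIRI 3 were most like the library labelled GXNI 3 (Spearman correlations of 0.986 and 0.987), while MIRI 2 was most like GXNI 1 (0.982). GXNI 3 was most like MIRI 3, GXNI 2 most like MIRI 1 (0.980) and GXNI 1 most like sham 1 (0.984), so no I/R library was most like its own group. Within groups, MIRI 2 and GXNI 3 stood apart. The chi-square per degree of freedom was 86.0 and 138 for MIRI 2 with MIRI 1 and MIRI 3, against 39.3 between MIRI 1 and MIRI 3. It was 160 and 73.5 for GXNI 3 with GXNI 1 and GXNI 2, against 51.0 between GXNI 1 and GXNI 2. Whether the labels of MIRI 2 and GXNI 3 were exchanged was not tested and the labels are kept. Every GXNI against MIRI value therefore depends on these 2 labels, and results that rest on the 2 libraries are given with and without them. In bulk tissue, fewer cells of a type and less RNA per cell cannot be told apart.

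The members form 2 clusters in the mouse genome (build GRCm38, GENCODE M21). Gbp2, Gbp3, Gbp5 and Gbp7 lie on the forward strand of chromosome 3 within 144 kb, from 142493978 to 142638008. Gbp4, Gbp6, Gbp8, Gbp9, Gbp10 and Gbp11 lie on the reverse strand of chromosome 5 within 332 kb, from 105014150 to 105346472. Gbp11 is annotated as a polymorphic pseudogene and the other members as protein coding. The gene models of Gbp4, Gbp8 and Gbp9 overlap on the same strand, and an unnamed model, Gm43302, overlaps exons of both Gbp6 and Gbp10 and held at most 0.428 CPM in any library. Close copies share sequence: 84.1% of the 50-base stretches of Gbp10 transcripts and 70.7% of those of Gbp6 were also present in another gene, mostly in each other or in Gm43302. The share was 19.2% for Gbp11, 18.1% for Gbp8, 12.7% for Gbp7 and between 1.44% and 8.05% for the other 5 members. How reads with several matching places were counted is not given in the sources used here, so the split of reads between Gbp6 and Gbp10 is uncertain.

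Promoter windows of RefSeq (build GRCm38.p6) running from 250 bases before to 50 bases after the start were matched for 4 of the 10 members, all on chromosome 3, with a second window for Gbp3. They were searched on both strands for an ISRE-like motif (GAAANNGAA, the kind of element bound by interferon regulatory factors), a GAS-like motif (TTCNNNGAA, after the gamma-activated site), an NF-kappa-B-like motif (GGGANTTTC) and a TATA-like motif (TATAAA). The sequences below show the part upstream of the start on the forward strand for these 4 members, the only ones with a matched window. They are chr3:142620413-142620662 for Gbp2, chr3:142559794-142560043 for the first start of Gbp3, chr3:142496684-142496933 for Gbp5 and chr3:142530086-142530335 for Gbp7. Capitals mark the ISRE-like and GAS-like matches.
Gbp2 upstream: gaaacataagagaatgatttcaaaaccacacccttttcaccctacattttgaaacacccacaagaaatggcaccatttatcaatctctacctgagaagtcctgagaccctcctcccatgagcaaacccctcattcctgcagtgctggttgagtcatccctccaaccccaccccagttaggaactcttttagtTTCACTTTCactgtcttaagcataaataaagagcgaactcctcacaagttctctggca
Gbp3 upstream: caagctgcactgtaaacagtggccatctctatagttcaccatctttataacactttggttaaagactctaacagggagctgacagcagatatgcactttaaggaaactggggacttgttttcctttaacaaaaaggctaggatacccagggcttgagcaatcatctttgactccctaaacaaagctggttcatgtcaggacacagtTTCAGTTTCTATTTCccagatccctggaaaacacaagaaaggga
Gbp5 upstream: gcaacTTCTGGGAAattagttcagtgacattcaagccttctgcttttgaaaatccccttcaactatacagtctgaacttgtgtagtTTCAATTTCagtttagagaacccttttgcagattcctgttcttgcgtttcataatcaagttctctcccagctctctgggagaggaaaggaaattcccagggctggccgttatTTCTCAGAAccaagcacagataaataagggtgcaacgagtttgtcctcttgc
Gbp7 upstream: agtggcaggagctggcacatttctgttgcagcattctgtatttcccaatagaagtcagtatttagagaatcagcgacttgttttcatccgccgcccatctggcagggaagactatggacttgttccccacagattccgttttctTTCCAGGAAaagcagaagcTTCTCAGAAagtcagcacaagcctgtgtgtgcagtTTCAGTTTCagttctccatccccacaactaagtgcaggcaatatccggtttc
All 4 members had an ISRE-like match, in each case on the reverse strand, and 8.56% of the 32851 promoter windows of the same length had one. It began at position -58 in Gbp2, -44 in Gbp3, -164 in Gbp5 and -52 in Gbp7, counted from the start at 0, and Gbp3 held a second copy that overlapped the first. GAS-like matches were found in Gbp5, the first at -245, and in Gbp7, the first at -106, against 8.30% of all windows. Gbp5 alone of the 4 held the NF-kappa-B-like motif (1.11% of all windows), and Gbp3 alone the TATA-like one (13.6%). The second window of Gbp3 held none of the 4 motifs. These matches describe letters in a window and not bound sites.

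In sham hearts the members covered a wide range of levels per length of transcript. Gbp2 was the highest at 26.1 ± 16.4 CPM per kb (SD, n = 3), followed by Gbp3 at 19.1 ± 11.2, Gbp4 at 14.8 ± 11.0, Gbp7 at 13.9 ± 8.70, Gbp9 at 12.5 ± 6.69, Gbp6 at 11.1 ± 6.95 and Gbp5 at 6.42 ± 4.46 CPM per kb. Gbp10 was lower at 3.72 ± 3.13 CPM per kb, and Gbp8 and Gbp11 lower still at 0.221 ± 0.0709 and 0.0715 ± 0.0421 CPM per kb. Neighbours from Gbp2 to Gbp10 in this order overlapped in range, whereas Gbp10 and Gbp8, and Gbp8 and Gbp11, did not. In MIRI hearts Gbp2 still led with 11.4 ± 8.88 CPM per kb, and Gbp4 stood 6th of 10 at 1.62 ± 1.53. In GXNI hearts Gbp2 stood at 14.8 ± 12.6 CPM per kb and Gbp4 again 6th at 2.58 ± 1.43, while Gbp10 at 0.0712 ± 0.00979 stood next to Gbp8 at 0.0786 ± 0.0606, with overlapping ranges. Gbp2b, the remaining family gene of the chromosome 3 cluster, was counted 0, 8 and 5 times in sham libraries 1 to 3 and once in the 6 I/R libraries together.

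Among the chromosome 3 members, Gbp2, which gathers on pathogen vacuoles, had 20.04, 76.4 and 100.7 CPM in sham libraries 1 to 3. It had 52.4, 8.17 and 25.1 CPM in MIRI libraries 1 to 3 and 17.4, 20.7 and 74.0 CPM in GXNI libraries 1 to 3. The groups overlapped: the library sham 1 was lower than 4 of the 6 I/R libraries, and MIRI 1 and GXNI 3 were the highest of the I/R libraries. Gbp3 had 20.8, 77.0 and 89.6 CPM in sham, 45.1, 4.23 and 18.4 CPM in MIRI and 19.4, 24.9 and 55.1 CPM in GXNI hearts. Gbp5, which promotes assembly of the NLRP3 inflammasome, had 8.92, 64.6 and 54.3 CPM in sham, 26.0, 2.76 and 7.93 CPM in MIRI and 5.66, 10.1 and 37.7 CPM in GXNI hearts. Gbp7 had 23.6, 93.8 and 118 CPM in sham, 40.6, 8.70 and 17.5 CPM in MIRI and 20.9, 30.4 and 53.6 CPM in GXNI hearts. In each of these genes 2 sham libraries lay above all 6 I/R libraries and the library sham 1 lay among them.

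The fold changes of the chromosome 3 members were moderate beside their errors. All I/R against sham hearts gave log2 fold changes of -0.99 (standard error 0.65) for Gbp2, -1.16 (0.65) for Gbp3, -1.50 (0.78) for Gbp5 and -1.45 (0.56) for Gbp7. These correspond to levels 1.99-, 2.23-, 2.82- and 2.72-fold lower. None of the 4 met the call, a fold of at least 1.5 with an unadjusted p of at most 0.01 in edgeR's quasi-likelihood test. The thresholds are those of the study, which tested with DESeq2. MIRI against sham hearts gave log2 fold changes of -1.18 to -1.79 for these 4 genes, and GXNI against sham hearts -0.80 to -1.24. These 2 comparisons share their sham libraries. Single libraries moved these values: without MIRI 1 the MIRI comparison gave -1.97 for Gbp2, -2.45 for Gbp3, -2.97 for Gbp5 and -2.56 for Gbp7, and without GXNI 3 the GXNI comparison gave -1.78 for Gbp2, -1.49 for Gbp3 and -2.43 for Gbp5.

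The chromosome 5 members differed more widely from one another. Gbp10 had 3.81, 11.8 and 27.6 CPM in sham libraries 1 to 3, from 71, 238 and 516 counts. It had 1.02, 0.353 and 1.95 CPM in MIRI hearts (22, 6 and 45 counts) and 0.298, 0.298 and 0.232 CPM in GXNI hearts (6, 6 and 4 counts). Each sham library was above each I/R library, and each MIRI library above each GXNI library. Against sham hearts, all I/R hearts gave a log2 fold change of -4.32 (standard error 0.72), MIRI hearts -3.65 (0.84) and GXNI hearts -5.65 (0.83), or levels 20.02-, 12.5- and 50.3-fold lower. Without the library sham 3, which held most of the counts of Gbp10, the 3 log2 fold changes were -3.45, -2.79 and -4.78, and without MIRI 3 the first 2 were -4.97 and -4.32. With all libraries these were the 4th, 7th and 3rd largest decreases among the 7521, 7334 and 7220 genes that were lower in the respective comparison.

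Gbp6, the closest copy of Gbp10, had 27.0, 61.2 and 109 CPM in sham, 11.995, 1.94 and 3.20 CPM in MIRI and 4.82, 6.94 and 6.67 CPM in GXNI hearts. Sham and I/R libraries did not overlap, and the 3 GXNI libraries lay close together at 6.14 ± 1.16 CPM (SD, n = 3). The log2 fold changes against sham hearts were -3.46 (0.53) for all I/R, -3.498 (0.80) for MIRI and -3.41 (0.51) for GXNI hearts, which is 11.02-, 11.3- and 10.6-fold lower. Without MIRI 1 the MIRI value was -4.65. Gbp4, a negative regulator of IRF7 in mouse cells, had 16.0, 160 and 156 CPM in sham, 25.2, 3.47 and 7.88 CPM in MIRI and 10.6, 16.1 and 31.3 CPM in GXNI hearts. The library sham 1 lay within the I/R range for Gbp4, and the highest sham library was 10.01 times the lowest. The log2 fold changes of Gbp4 were -2.81 (0.72), -3.16 (1.005) and -2.51 (0.84) in the same order, and -4.27 for MIRI hearts without MIRI 1.

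Gbp9 was the steadiest of the expressed members, with 24.5, 83.7 and 85.1 CPM in sham, 43.3, 12.7 and 17.8 CPM in MIRI and 25.5, 27.4 and 51.6 CPM in GXNI hearts. Its log2 fold change in all I/R against sham hearts was -1.11 (0.47). Gbp8 was near the limit of counting, with 9, 19 and 16 counts in sham, 7, 1 and 5 counts in MIRI and 6, 1 and 8 counts in GXNI libraries. Its sham libraries (0.483 to 0.942 CPM) lay above its I/R libraries (0.0496 to 0.464 CPM), and a fit without the filter on low counts gave a log2 fold change of -1.67 (0.56). Gbp11 had at most 6 counts in any library. Its log2 fold changes against sham hearts in fits without the filter rest on these few counts. They were -2.06 (0.90) for all I/R, -1.49 (1.04) for MIRI and -3.06 (1.23) for GXNI hearts.

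**Figure D1:**
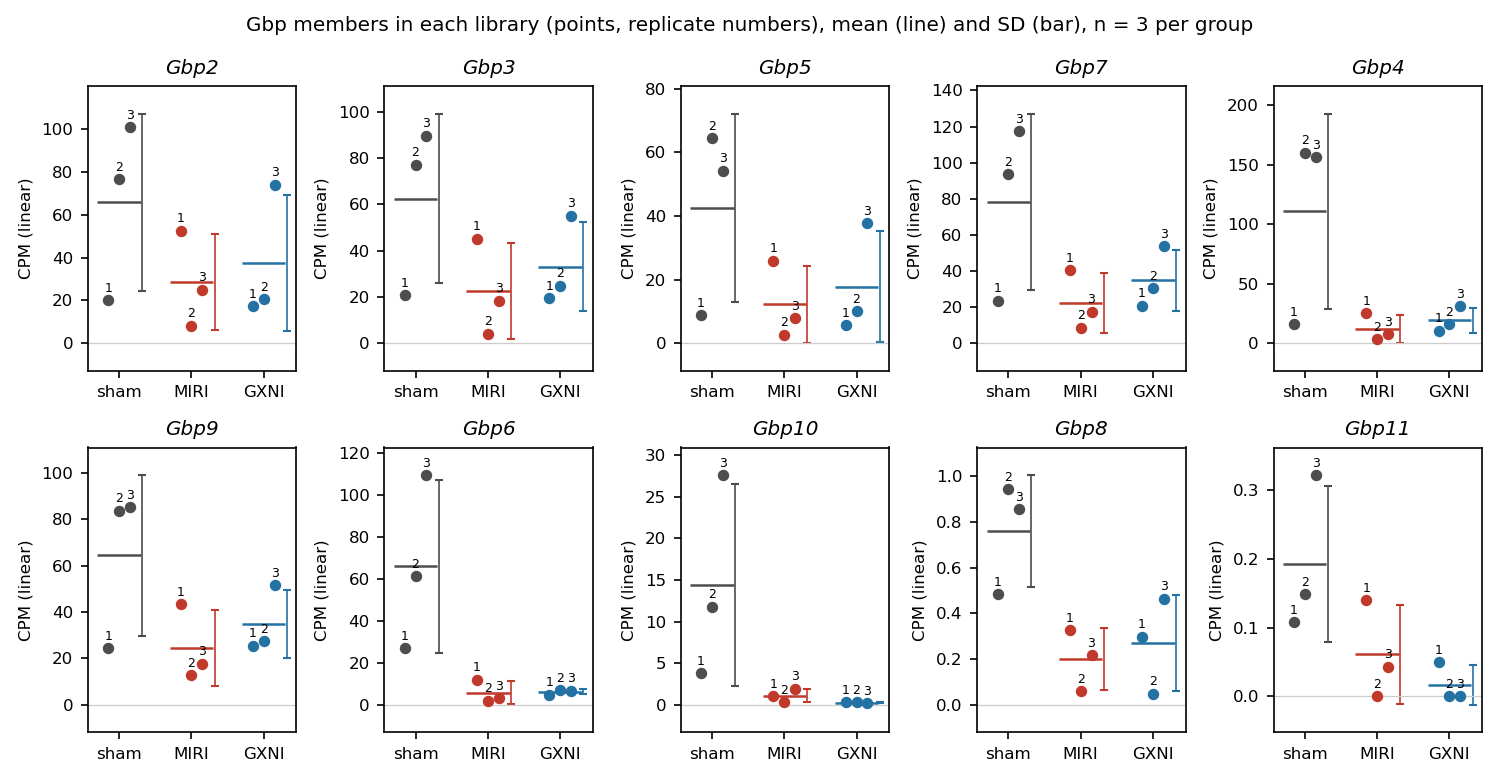
Level of each member in CPM on a linear axis from its own scale, by group (sham, MIRI, GXNI), with 1 point per library marked by its replicate number, the mean as a line and the SD as a bar (n = 3). Sham 1 is the lowest sham library in 10 of 10 panels, and Gbp6, Gbp10 and Gbp8 are the panels in which no I/R point reaches a sham point.

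Across the family, the libraries kept much the same order. Sham 1 was the lowest sham library for 10 of 10 members, all 6 I/R libraries were below sham 2 and sham 3 for 10 of 10, and MIRI 2 was the lowest of the 9 libraries for 7. The highest I/R library was GXNI 3 for 7 members, MIRI 1 for 2 and MIRI 3 for 1. Over the 9 libraries, the log2 CPM of the 8 members with a mean count of at least 20 correlated pairwise with Pearson's r of 0.55 to 0.99 and a median of 0.92 over 28 pairs. The lowest was between Gbp3 and Gbp10. All 28 pairs share the same 9 libraries, and Gbp6 and Gbp10 share sequence as well.

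Sham and I/R libraries did not overlap for 3 of the 10 members, Gbp6, Gbp8 and Gbp10, all lower in I/R, where 5.33% of all genes with a count were lower without overlap. Gbp4, Gbp6 and Gbp10 met the call as lower in all I/R against sham hearts, 3 of 8 members that passed the filter on low counts, and 2.85% of the 15207 genes tested were called lower. The other 2 members, Gbp8 and Gbp11, were under the filter, and Gbp10 passed it through its sham libraries. The median log2 fold change of the 8 was -1.47, against 0.01 over all genes tested. Gbp6 and Gbp10 were called lower in MIRI against sham hearts, where 2.82% of 14644 genes were, and in GXNI against sham hearts, where 1.54% of 14695 genes were. Without MIRI 1 only Gbp6 and without MIRI 3 only Gbp10 was called in the MIRI comparison, and without sham 1 Gbp4 and Gbp7 were added in both comparisons and Gbp9 in the GXNI comparison. Because the family was chosen for a fall in these libraries, nothing is read from these counts. Just outside the call in all I/R against sham hearts stood Gbp7 and Gbp9, with log2 fold changes of -1.45 and -1.11, and just inside it Gbp4 with -2.81.

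The count depended on the library sham 1. Without it, 5 members were called lower in all I/R against sham hearts, Gbp7 and Gbp9 being added, and without sham 2 or sham 3 the call of Gbp4 was lost and 2 members were called. When p was adjusted by Benjamini-Hochberg over all genes in edgeR's quasi-likelihood test, 0 of the 8 members passed 0.05, beside 0.0329% of all genes that passed it as lower. In the same test 5 of the 8 had an unadjusted p under 0.05. Over all genes 11.8% had one and were lower, and 29.5% had one in either direction. DESeq2 called 4 members lower at the thresholds of the study, the added one being Gbp8, and 2.31% of all genes. In MIRI against sham hearts DESeq2 called 4 members and 2.72% of all genes lower. The adjusted p of edgeR called 0 members and 0% of genes lower there and in GXNI against sham hearts. In these 2 comparisons 4 and 3 members had an unadjusted p under 0.05 in edgeR's quasi-likelihood test. Over all genes 11.5% and 7.56% had one and were lower. At an adjusted p of 0.05 DESeq2 called 3 members lower in all I/R, 4 in MIRI and 2 in GXNI against sham hearts, beside 3.93%, 3.98% and 1.49% of the genes to which it gave an adjusted p.

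**Figure D2:**
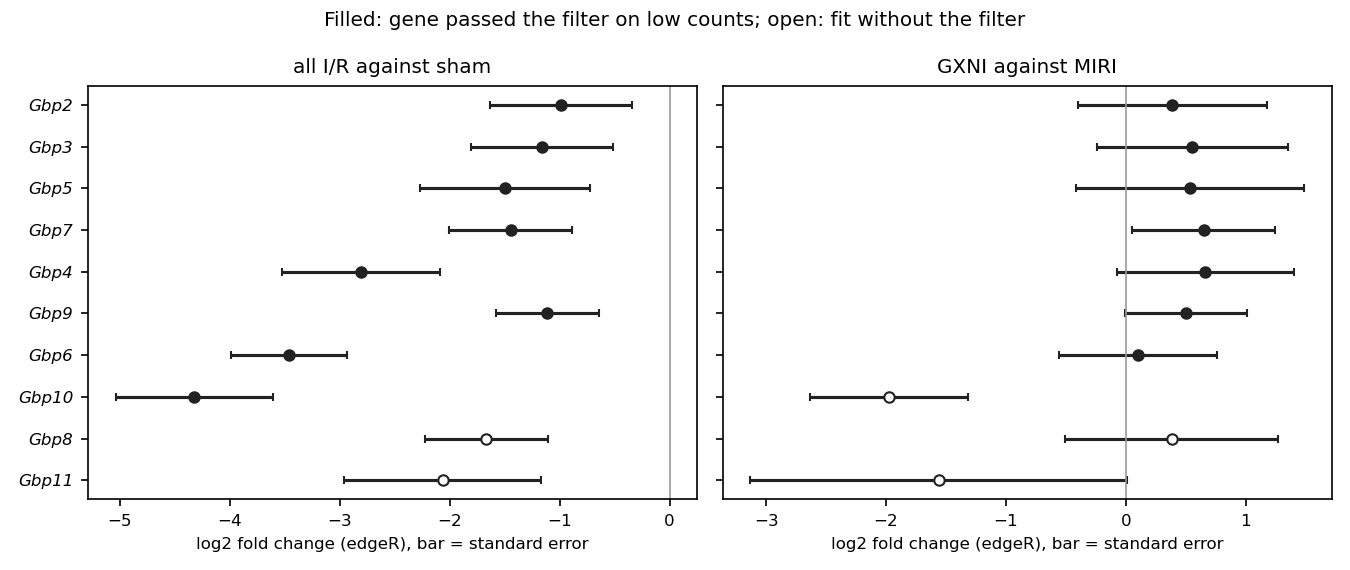
Log2 fold change (edgeR) of each member with its standard error as a bar, for all I/R against sham hearts (left) and GXNI against MIRI hearts (right), each on its own axis. Open points come from a fit without the filter on low counts. Every point on the left is below 0 and Gbp10 is the farthest at -4.32, while on the right 8 of the points, including all 7 filled ones, are above 0, each by less than 2 standard errors.

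The make-up of the family differed between sham and I/R hearts as well as its total. The 10 members summed to 145, 630 and 742 CPM in sham libraries 1 to 3, to 246, 42.4 and 99.95 CPM in MIRI and to 105, 137 and 311 CPM in GXNI libraries. The total thus overlapped between groups, with the library sham 1 below MIRI 1 and GXNI 3. Gbp6 made up 18.6% (95% Wilson interval 17.2 to 20.1), 9.72% (9.21 to 10.2) and 14.7% (14.2 to 15.3) of the family's counts in sham libraries, which held 2703 to 13856 family counts. It made up 4.87% (4.32 to 5.48), 4.58% (3.28 to 6.36) and 3.21% (2.56 to 4.01) in MIRI and 4.59% (3.78 to 5.57), 5.07% (4.31 to 5.96) and 2.15% (1.79 to 2.57) in GXNI libraries. The share of Gbp6 in the library sham 1 was the largest of all 9 although its family total was the lowest of the sham libraries. The intervals cover counting error only, since reads are not independent molecules.

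Counting Gbp6 and Gbp10 together does not depend on how reads were split between these genes. The sum would still lack reads that were dropped for several matches or given to Gm43302. The joint share of Gbp6 and Gbp10 was 11.6% to 21.2% in sham and 2.22% to 5.41% in I/R libraries, without overlap. Gbp10 alone made up 1.87% to 3.72% of the family's counts in sham, 0.415% to 1.95% in MIRI and 0.0747% to 0.284% in GXNI libraries. The ratio of Gbp2 to Gbp6 counts was 0.743 to 1.25 in sham and 2.98 to 11.1 in I/R libraries. Gbp4 and Gbp9, neighbours on chromosome 5, also differed: their ratio was 0.654, 1.91 and 1.84 in sham libraries 1 to 3 and 0.273 to 0.607 in I/R libraries. In turn, the chromosome 3 gene Gbp2 made up 12.1% to 13.8% of family counts in sham and 15.1% to 25.1% in I/R libraries. These shares come from the libraries in which the family was chosen and are given as a description.

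**Figure D3:**
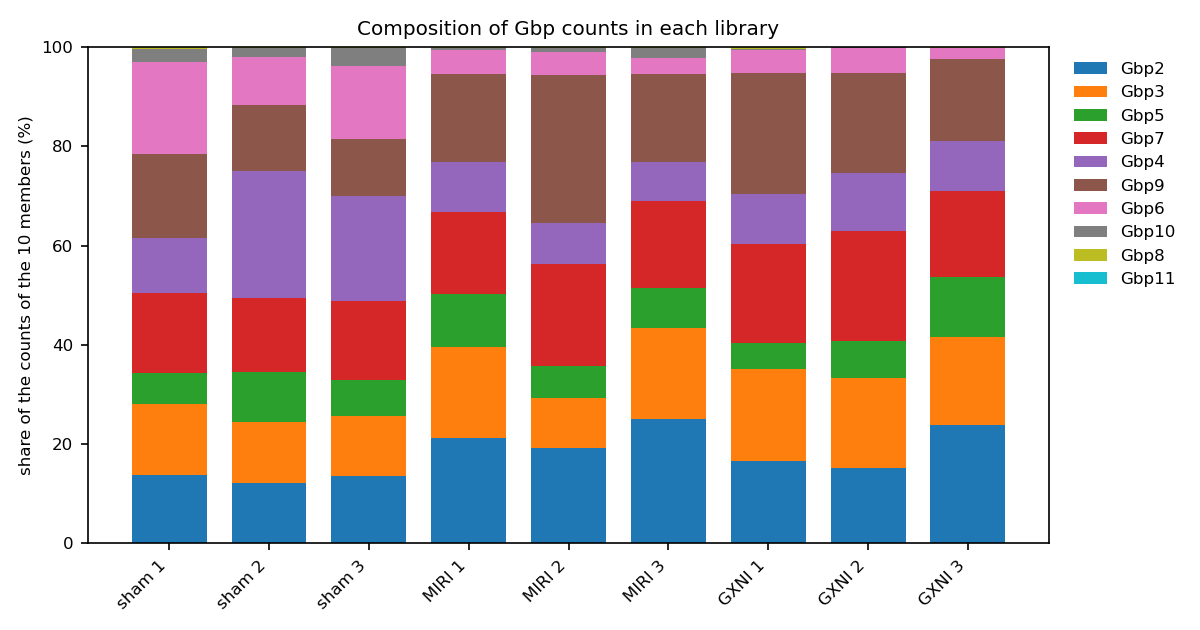
Share of each of the 10 members in the family's counts (percent, stacked to 100) in each of the 9 libraries. Gbp6 (pink) and Gbp10 (grey) together fill 11.6% to 21.2% of the sham bars and at most 5.41% of the I/R bars.

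To see whether the injection changed the family after injury, GXNI hearts were compared with MIRI hearts. Of the 7 members that passed the filter, 0 were called, as were 0.0203% of all 14762 genes tested, and 0 had an unadjusted p under 0.05, as did 0.318% of all genes. DESeq2, which covered all 10 members, also called 0 of them and 0.0391% of all genes. The 1 member under an unadjusted p of 0.05 in DESeq2 was Gbp10, the gene for which the family was chosen, and nothing is read from it. The log2 fold changes of the 7 were all above 0, from 0.10 (standard error 0.66) for Gbp6 to 0.66 (0.74) for Gbp4, with a median of 0.54 against -0.00027 over all genes. In edgeR's quasi-likelihood test Gbp7 had the smallest unadjusted p among them, 0.315, with a log2 fold change of 0.65 (0.60) and a 95% interval from -0.78 to 2.07. The interval, which uses the 6.66 degrees of freedom of the test, was -1.49 to 2.27 for Gbp2, -1.35 to 2.46 for Gbp3, -1.74 to 2.81 for Gbp5, -1.11 to 2.43 for Gbp4, -1.47 to 1.67 for Gbp6 and -0.72 to 1.72 for Gbp9. A difference of 2-fold in either direction lies within the interval of Gbp2, Gbp3, Gbp4, Gbp5 and Gbp6, and one of 2-fold higher within all 7.

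The direction depended on the libraries that stood apart. Without the libraries labelled MIRI 2 and GXNI 3, all 7 log2 fold changes were below 0, from -0.18 for Gbp7 to -1.10 for Gbp5, and the median over the members tested was -0.44. Without GXNI 3 alone, Gbp2, Gbp3 and Gbp5 were at -0.59, -0.03 and -0.64, and without MIRI 2 alone Gbp2 and Gbp6 were at -0.05 and -0.31. Gbp6 was at -0.20 without MIRI 3. The libraries MIRI 2 and GXNI 3 held 721 and 5355 family counts, the lowest and the highest of the 6 I/R libraries.

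Gbp10 was under the filter in the comparison of GXNI with MIRI hearts, and a fit without the filter gave a log2 fold change of -1.97 (0.66). Its MIRI and GXNI libraries did not overlap, the only such member of 10, where 1.52% of the genes with a count were lower in GXNI without overlap. The GXNI values rest on 4 to 6 counts per library, and the largest MIRI value, 45 counts, was that of MIRI 3. MIRI 2, at 0.353 CPM, and GXNI 1 and GXNI 2, at 0.298 CPM each, all held 6 counts, so that the lack of overlap rests there on the scaling of the libraries. It also rests on the labels of MIRI 2 and GXNI 3 (0.232 CPM): with these 2 labels exchanged the groups would overlap. Gbp6 did not share the pattern, with overlapping MIRI and GXNI libraries and a log2 fold change of 0.10 (0.66).

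Irgm1 and Psmb9, both induced by interferons, were among the genes closest to the members in pattern. Among 15218 genes ranked by correlation with the mean log2 CPM of the 8 expressed members over the 9 libraries, the first 5 included Irgm1 (r = 0.98), an immunity-related GTPase, Psmb9 (0.98), a subunit of the immunoproteasome, Plgrkt (0.97), a plasminogen receptor, and Trim21 (0.97), a cytosolic antibody receptor. Gbp10 by itself was closest to Idi1 (0.96), Nosip (0.94), Top2a (0.91), Lurap1l (0.91) and Phkg2 (0.90). These are descriptions over 9 libraries that the genes share.

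Irf1, an interferon-induced transcription factor that activates Gbp genes, had 20.9, 60.7 and 58.8 CPM in sham, 21.2, 10.7 and 20.6 CPM in MIRI and 14.1, 23.5 and 39.0 CPM in GXNI hearts, with a log2 fold change of -1.12 (0.41) that did not meet the call, but met it without sham 1 and without GXNI 3. For Irf1 sham 1 was again the lowest sham library and MIRI 2 the lowest of all. Ifng, which encodes interferon gamma, was counted 0 times in each of the 9 libraries, which allows up to 3 counts per library or 0.175 CPM at the lowest depth.

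Of 13 genes of interferon gamma signalling, 12 were tested in all I/R against sham hearts, with a median log2 fold change of 0.18. Among them 1 was called higher, Ptpn2, a phosphatase that restrains JAK kinases, with a log2 fold change of 1.23 (0.28). Over all genes 5.52% were called higher. The receptor genes Ifngr1 and Ifngr2 had log2 fold changes of 0.29 (0.16) and -0.32 (0.15), and the kinase gene Jak1 of -0.05 (0.16), none of which met the call. Of 20 other targets of interferon gamma, 19 were tested and 5 were called lower and 0 higher in edgeR's quasi-likelihood test, where 2.85% of all genes were called lower, with a median of -1.18 against 0.01 over all genes. At an adjusted p of 0.05 edgeR called 0 of the 19 and DESeq2 called 7 of 20 (8 at the thresholds of the study). In edgeR's quasi-likelihood test 10 of the 19 had an unadjusted p under 0.05, beside 29.5% of all genes in either direction. At the thresholds of the study DESeq2 added Psmb9, Tgtp1 and Wars to the 5 genes of edgeR. The 5 called by edgeR were the immunity-related GTPase genes Igtp (-3.59 (0.61)), Iigp1 (-3.16 (0.61)), Irgm2 (-2.96 (0.51)), Gm12250 (-2.68 (0.71)) and Irgm1 (-1.89 (0.54)). Their proteins, like the Gbp proteins, act on vacuole membranes. Iigp1 had 174, 665 and 1505 CPM in sham, 137, 68.5 and 24.5 CPM in MIRI and 128, 75.03 and 86.4 CPM in GXNI hearts. Without sham 1 the number called was 9, and without sham 3 it was 3, Igtp, Iigp1 and Irgm2. In GXNI against MIRI hearts edgeR called 0 of the 12 and 0 of the 19 genes, with 0 and 1 under an unadjusted p of 0.05, and so did DESeq2 with 0 of 12 and 0 of 20. Without MIRI 2 and GXNI 3 the genes Jak2, Socs1 and Socs3 of the first list and Cd274 of the second were called lower, and the medians went from 0.13 to -0.33 and from 0.37 to -0.39. In that fit 520 of 14984 genes were called lower and 228 higher. Without MIRI 1 alone Irgm2 was called higher, where 5 of 15098 genes were.

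Genes of the type I interferon response had mostly positive log2 fold changes. Of 13 tested, 0 were called in either direction in all I/R against sham hearts by edgeR or DESeq2, with 0 under an unadjusted p of 0.05 in edgeR. Of the 13, 12 had log2 fold changes above 0, with a median of 0.50. Without MIRI 2 Mx1 was called higher, where 1466 of 15156 genes were. Rsad2, which encodes the antiviral protein viperin, had 26.0, 61.3 and 61.4 CPM in sham, 159, 8.23 and 102 CPM in MIRI and 27.5, 55.6 and 261 CPM in GXNI hearts. The values of Ifit3 were 28.3, 50.7 and 71.9 CPM in sham, 132, 3.64 and 42.7 CPM in MIRI and 32.1, 60.5 and 181 CPM in GXNI hearts. The I/R libraries MIRI 1 and GXNI 3, which were high for most Gbp members, were above all sham libraries for both genes, and MIRI 2 was below them. Irf7, the regulator that Gbp4 restrains, had a log2 fold change of -0.80 (0.75). Of 9 inflammasome and pyroptosis partners, 0 were called by edgeR's quasi-likelihood test. In that test 2 had an unadjusted p under 0.05, beside 29.5% of all genes in either direction. The median log2 fold change of the 9 was 0.86: Il1b stood at 3.38 (1.25), Casp8 at 0.95 (0.47) and Gsdmd, the pore-forming gasdermin D, at 0.28 (0.31). DESeq2 and the fit without the filter called Il1b higher, as did the fit without GXNI 1. Over all genes these fits called 1519 of 29338, 1228 of 29344 and 1440 of 15040 higher. Without MIRI 2 both Il1b and Nlrp3 were called higher, where 1466 of 15156 genes were. Without MIRI 2 and GXNI 3 Nlrp3 was called higher, where 989 of 14990 genes were.

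**Figure D4:**
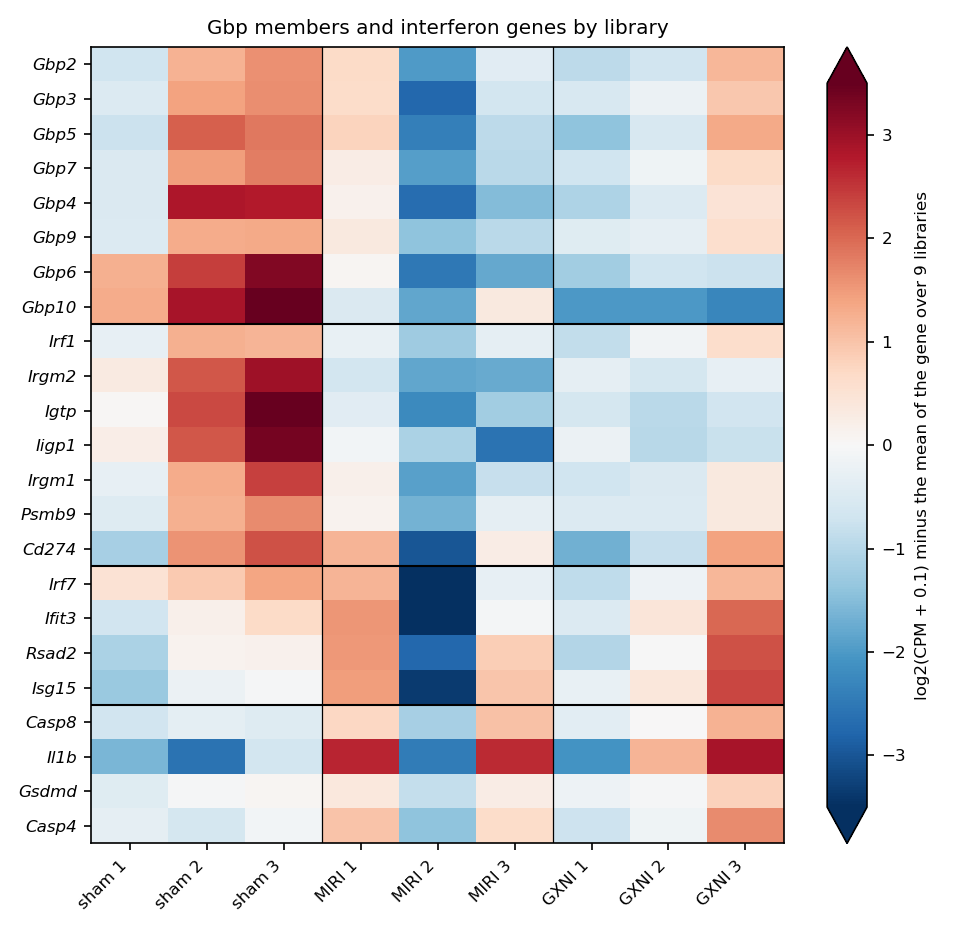
Colour gives log2(CPM + 0.1) minus the mean of each gene over the 9 libraries, for 8 members and for genes of interferon gamma signalling and its targets, the type I response and the inflammasome, in blocks separated by lines. The genes of the lower 3 blocks are a selection from the lists. In the 2 lists behind the second block, 7 of 12 and 2 of 19 tested genes had log2 fold changes above 0 in all I/R against sham hearts. None of these is drawn. The colour scale ends at its arrows, beyond which values have the end colour. Sham 2 and sham 3 are the darkest red columns in the upper 2 blocks, and MIRI 2 is the bluest in most rows.

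Markers of the cell types that could carry these transcripts were read beside the members. The 8 endothelial markers summed to 836 to 1141 CPM in sham and 859 to 1351 CPM in I/R libraries, and 0 of 8 were called by edgeR or DESeq2, with 0 under an unadjusted p of 0.05. The 9 macrophage markers summed to 445 to 486 CPM in sham and 303 to 627 CPM in I/R libraries, with 0 of 9 called by edgeR or DESeq2 and 1 under an unadjusted p of 0.05 in edgeR. Over all genes 29.5% had an unadjusted p under 0.05 in that test in either direction. Without MIRI 2 the macrophage markers Cd68 and Fcgr1 were called higher, where 1466 of 15156 genes were. The 11 T and NK cell markers were scarce, at a sum of 4.46, 8.53 and 7.07 CPM in sham libraries 1 to 3, 4.84, 0.529 and 4.85 CPM in MIRI and 2.19, 1.83 and 4.18 CPM in GXNI libraries. Of the 5 T and NK cell markers tested in all I/R against sham hearts 1 was called lower, beside 2.85% of all genes. It was Nkg7, a granule protein of cytotoxic cells, with a log2 fold change of -1.60 (0.35). Nkg7 stood at 0.694 to 0.856 CPM in sham and 0.0993 to 0.346 CPM in I/R libraries, and was under the filter in GXNI against MIRI hearts. The T and NK cell markers Cd3d, Cd3e and Cd3g were under the filter in all I/R against sham hearts, with overlapping sham and I/R libraries. The summed level was lowest in MIRI 2, where 8 of the 11 markers were at 0, and 7 of the 11 were lower in sham 1 than in the other 2 sham libraries, as were 7 of the 8 endothelial markers. The 10 neutrophil markers summed to 30.1 to 60.9 CPM in sham libraries, to 759, 27.7 and 714 CPM in MIRI and to 50.2, 233 and 739 CPM in GXNI libraries, so that the I/R libraries highest in Gbp2, MIRI 1 and GXNI 3, were also high in neutrophil markers, as was MIRI 3, which was not high in Gbp2. The part of these cell types in the levels of the members was not tested.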

How the data were processed

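Heart RNA was sequenced from 3 sham, 3 MIRI and 3 GXNI mice. The deposited values are counts of reads per gene, which the authors made by removing low-quality reads, aligning with HISAT2 to the mouse genome (mm10 per the submitters' processing notes) and counting with featureCounts of Subread. They were not normalized. The versions, the annotation, the strand setting and the handling of reads with several matches are not given in the sources used here. GENCODE M21 gave a symbol for 54409 of the 54532 gene identifiers and none for 123. The table held 0 columns of other samples.

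For each comparison, all genes passing the filter were fitted over the libraries concerned (edgeR 4.0.16, R 4.3.3, TMM normalization, default filter on low counts, quasi-likelihood F test, no covariates). Standard errors are log2 fold changes over the square root of F, and intervals use the t quantile at the degrees of freedom of the test. A call needed a fold of at least 1.5 and an unadjusted p no higher than 0.01. Both thresholds are those of the study, whose own test was DESeq2. The study names 3 independent animals per group. No pair of libraries agreed within sampling noise, the lowest chi-square per degree of freedom being 13.2, between sham 2 and sham 3. The members, the gene lists and the markers were chosen with earlier results of these data known. The text names every member, Gbp2b, the 3 genes of each list with the highest mean CPM (part of which are printed), Ifng, Irf1, the called genes of a list, and the 5 genes most like the member mean and most like Gbp10. A result that this rule would name is not reported here. The alternatives were DESeq2 1.42.0, RLE normalization, fits without the filter, a single fit of all 9 libraries, a block for the replicate number, an adjusted p no higher than 0.05, each library left out, and MIRI 2 and GXNI 3 left out together.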

Additional observations from a re-analysis of the deposited data

Results flagged for a closer look

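In each set of 6 I/R libraries, the level and the family share of each member were searched for a single library far from the others (20 sets), by a rule on the gap to the nearest library that chance meets in about 1 of 20 sets. A library stood apart in 2 of them. Gbp3 made up 9.99% of the family's counts in the library labelled MIRI 2, whereas the other 5 I/R libraries lay between 17.7% and 18.5% and the sham libraries between 12.1% and 14.3%. The MIRI 2 library had the fewest family counts, 721, of which 72 fell on Gbp3. Gbp11 stood at 0.139 CPM in the library labelled MIRI 1, from 3 counts, with the other 5 I/R libraries between 0 and 0.0497 CPM.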

How the results depend on the processing

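The log2 fold changes of the members kept their sign in all 115, 103 and 103 alternative values of the comparisons of all I/R, MIRI and GXNI with sham hearts, and in 80 of 93 values of GXNI against MIRI hearts. In the latter, leaving out the libraries MIRI 2 and GXNI 3 together turned Gbp2 to -1.02, Gbp3 to -0.52, Gbp4 to -0.31, Gbp5 to -1.10, Gbp6 to -0.37, Gbp7 to -0.18 and Gbp9 to -0.20, moved the median from 0.54 to -0.44 and brought the members called from 0 to 1. That one was Gbp10, the gene for which the family was chosen, which passed the filter there through its MIRI libraries. Over all genes, 520 of 14984 were called lower and 228 higher in that fit, beside 3 and 0 of 14762 with all libraries. Leaving out single libraries there gave -0.59 to 1.18 for Gbp2, -0.031 to 1.57 for Gbp3, -0.64 to 1.75 for Gbp5 and -0.31 to 1.26 for Gbp6, and 0 to 1 members called.

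In all I/R against sham hearts 3 members were called, 2 to 5 when single libraries were left out and 0 at an adjusted p of 0.05 in edgeR's quasi-likelihood test. In MIRI against sham hearts the count of 2 became 4 with DESeq2, 5 without the filter on low counts, 0 at the adjusted p of edgeR and 1 to 4 when single libraries were left out. In GXNI against sham hearts it was 2, then 0 at the adjusted p of edgeR and 2 to 5 when single libraries were left out. The adjusted p called 3, 4 and 2 members in these comparisons in DESeq2 and 2, 3 and 2 in edgeR without the filter. The latter passed 100 of 29344, 1124 of 27901 and 18 of 27966 genes in either direction. With the filter the adjusted p called 3 members in all I/R hearts without GXNI 1 or without MIRI 2. There 2628 of 15040 and 1795 of 15156 genes passed. It called 2 members in MIRI hearts without MIRI 2, where 6554 of 15207 genes passed. In GXNI hearts without GXNI 1 it called 2, where 2749 of 14990 genes passed. Nothing is read from these counts of members. The causes of these shifts were not tested. With the replicate number as a block, 1 member was called in MIRI against sham hearts, Gbp10. The deviations of same-numbered libraries correlated between -0.445 and 0.700 across genes. These values depend on the labels of MIRI 2 and GXNI 3 and do not settle whether the numbers pair the mice. Depth limits Gbp8, Gbp11 and the I/R values of Gbp10, and the uncertain split of reads limits Gbp6 and Gbp10.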
